A study of Mus musculus with 3 samples.

Results

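Genes of antigen presentation by MHC class II were followed in mouse colon organoids given IFN-γ. Ciita, H2-Aa, H2-Ab1, H2-Eb1, Cd74, H2-DMa, H2-DMb1 and Ctss were chosen by name, for their part in making and loading class II molecules, and are 8 of the 32285 genes in the count matrices. The organoids were small epithelial structures grown from mouse colon, labelled as epithelial cells. Of the 3 libraries, 1 was left untreated, 1 was labelled IFNy, 24h and 1 was labelled IFNy, 48h, and no other allele or agent is named for any of them. Cells were profiled with 10x 3' single-cell RNA sequencing, in which each transcript molecule caught is counted once as a unique molecular identifier (UMI). Each group was 1 library, so treatment, time and library cannot be told apart, no test between groups was possible, and the intervals given below cover counting error only.

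MHC class II molecules are pairs of an α and a β chain that carry peptides from the endosome to the cell surface, where CD4+ T cells read them. Ciita encodes the coactivator that switches on the class II genes. It binds no DNA itself but is held at class II promoters by proteins bound to short W, X and Y boxes. IFN-γ acts through its receptor and JAK kinases to induce Ciita, and intestinal epithelium, which has little class II at rest, is known to display it under this cytokine.

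The genes lie in a few places. H2-Aa (chr17:34282744-34287823), H2-Ab1 (chr17:34257689-34269419), H2-Eb1 (chr17:34305867-34316674), H2-DMa (chr17:34119541-34139101) and H2-DMb1 (chr17:34153072-34160230) share the MHC region. Ciita (chr16:10480059-10528418) and Ctss (chr3:95526786-95556403) lie elsewhere, in mm10 (GRCm38) with GENCODE vM21 gene limits. Promoter sequence from RefSeq (GRCm38.p6, from 250 bases before the start to 50 after it) was found for 5 of the 8 genes: H2-Aa, H2-Eb1, H2-DMa, H2-DMb1 and Ctss. The last 150 bases before the RefSeq start are shown for 2 chain genes, whose levels differed strongly between libraries, and for Ctss, whose level differed least of the 8. In the chain genes the capitals mark the Y-box letters ATTGG (or CCAAT when read on the other strand) and the longer stretches that promoters of the set share, and in Ctss they mark matches to AANNGAAA, a core read by interferon regulatory factors.
H2-Aa, chr17:34287824-34287973, minus strand: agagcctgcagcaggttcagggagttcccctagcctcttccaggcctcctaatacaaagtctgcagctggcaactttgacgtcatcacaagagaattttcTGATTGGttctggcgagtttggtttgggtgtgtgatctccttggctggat
H2-Eb1, chr17:34305717-34305866, plus strand: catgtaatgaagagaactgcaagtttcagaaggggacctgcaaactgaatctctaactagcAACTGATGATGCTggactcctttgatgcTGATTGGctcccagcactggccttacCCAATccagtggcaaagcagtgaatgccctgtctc
Ctss, chr3:95526636-95526785, plus strand: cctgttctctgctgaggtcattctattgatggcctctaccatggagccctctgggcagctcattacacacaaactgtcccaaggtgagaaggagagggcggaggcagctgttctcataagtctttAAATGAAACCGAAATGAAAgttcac

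The 250 bases before each start were searched on both strands. ATTGG was found in the promoters of H2-Aa, H2-Eb1 and H2-DMb1, with its first base at -48, -59 and -61 from the start, and in 33.8% of the 32851 RefSeq promoters. In all 3 it sat within the stretch TGATTGG, which 7.23% of promoters hold and which was picked after the sequences were seen. The same stretch was found on the plus strand in H2-Oa (-45), H2-Ob (-59), H2-DMb2 (-92) and H2-Eb2 (-102). H2-Oa and H2-Ob had 0 or 1 UMI in each library, so the stretch is not particular to genes with high levels here. H2-Eb1 had a further match on the minus strand at -35, and of the RefSeq starts of H2-DMa 1 had a match at -198. H2-Eb1 and H2-DMb1 shared the 13-letter stretch AACTGATGATGCT, at -89 and -92, which was found in 2 of the 32851 promoters and was also picked after the sequences were seen. The RefSeq start of H2-DMb1 lies 119 bases inside the GENCODE gene, so its window is not printed. For the X box only the letters ACAGATG, in 4.15% of promoters, were searched. They were found at -232 on the minus strand in H2-Aa and at -137 in H2-Oa. A promoter without these letters may still hold an X box in other letters, and the match in H2-Aa need not be its X box. Ctss had no ATTGG, and held 3 overlapping matches to AANNGAAA, at -25, -19 and -14; 21.3% of promoters hold at least 1 match. H2-Aa had 1 match to AANNGAAA, at -213, and the same H2-DMa start had 1 at -25 on the minus strand. A match here is a run of letters and says nothing of which protein binds.

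Filtering left 1058 cells in the untreated library, 917 in the 24 h library and 2934 in the 48 h library, with medians of 33550, 68784 and 10772 UMIs. Depth thus differed between the libraries, and shares of cells were compared after each cell had been thinned at random to 5000 UMIs. The 7 epithelial markers were found in every library, and Epcam was found in 99.4% to 99.9% of thinned cells. The 19 immune markers together gave 2.63 to 4.92 CPM (UMIs of a gene per 1000000 UMIs of the library), and Ptprc (CD45) was at 0 in all 3 libraries. The 6 stromal markers gave 0.394 to 1.27 CPM. Barcodes under 2000 UMIs, taken here as background, also held class II transcripts in the treated libraries. Whether these barcodes were empty or held poor cells was not tested. Across the 3 libraries 6 barcodes were retained more than once.

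Ciita was close to absent without IFN-γ. It had 6 UMIs in the 1058 untreated cells (0.120 CPM, 95% Poisson interval 0.0442 to 0.262), against 3195 UMIs (44.95 CPM, 43.4 to 46.5) at 24 h and 4665 UMIs (98.7 CPM, 95.9 to 101.6) at 48 h. The log2 ratio to untreated was 8.54 (7.42 to 9.99) at 24 h and 9.68 (8.56 to 11.13) at 48 h. Both treated libraries were thus far above the untreated one, with which both were compared.

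The 3 chain genes were nearly silent at rest and high after treatment. H2-Aa, the α chain of the I-A molecule, had 0 UMIs in untreated cells, 10774 UMIs (151.6 CPM) at 24 h and 18941 UMIs (401 CPM) at 48 h. Set against the 3 counts that a count of 0 allows in the untreated library (0.0602 CPM), this was at least 2516-fold higher at 24 h and at least 6656-fold higher at 48 h. H2-Ab1, its β chain partner, had 2 UMIs in untreated cells, 11524 UMIs (162 CPM) at 24 h and 26549 UMIs (562 CPM) at 48 h. Its log2 ratios were 11.98 (10.13 to 15.03) and 13.77 (11.92 to 16.82), the widest intervals of the set because they rest on those 2 UMIs. H2-Eb1, the β chain of the I-E molecule, had 7 UMIs (0.141 CPM) in untreated cells, 11417 UMIs (161 CPM) at 24 h and 17374 UMIs (368 CPM) at 48 h, for log2 ratios of 10.16 (9.11 to 11.47) and 11.35 (10.31 to 12.67). All 3 chains were above their untreated level by more than their counting intervals. H2-Ea, which encodes the α chain of I-E, was not found by name among the genes of the count matrices. Whether the I-E pair could be made therefore cannot be told from these data.

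Cd74 encodes the invariant chain, which holds new class II molecules in shape and fills their groove until they reach the endosome. It had 19 UMIs (0.382 CPM) in untreated cells, 86707 UMIs (1220 CPM, 1212 to 1228) at 24 h and 109494 UMIs (2318 CPM, 2304 to 2331) at 48 h. The log2 ratio to untreated was 11.64 (10.9996 to 12.37) at 24 h and 12.57 (11.93 to 13.30) at 48 h. The untreated and treated levels did not overlap.

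H2-DMa and H2-DMb1 encode the chains of H2-M, which exchanges the invariant chain remnant for peptide, and the pair differed at rest. H2-DMa was present without IFN-γ, with 274 UMIs (5.50 CPM, 4.87 to 6.19), and had 5216 UMIs (73.4 CPM) at 24 h and 5471 UMIs (115.8 CPM) at 48 h. H2-DMb1 had 5 UMIs (0.10 CPM, 0.0326 to 0.234) without IFN-γ, then 5743 UMIs (80.8 CPM) at 24 h and 6351 UMIs (134 CPM) at 48 h. H2-DMa thus had a measurable level at rest, above its counting error, and H2-DMb1 hardly any. The log2 ratio at 24 h was 3.74 (3.56 to 3.92) for H2-DMa and 9.65 (8.43 to 11.28) for H2-DMb1; at 48 h it was 4.40 (4.22 to 4.58) and 10.39 (9.16 to 12.01). H2-DMa overlaps Brd2 on the opposite strand and other annotated transcripts, and H2-DMb1 has a closely similar neighbour in H2-DMb2, so the assignment of some reads is uncertain.

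Ctss encodes cathepsin S, the protease that trims the invariant chain. It was found in all libraries, at 21.3 CPM (20.04 to 22.6) in untreated cells, 44.7 CPM (43.1 to 46.3) at 24 h and 57.9 CPM (55.7 to 60.1) at 48 h. Its log2 ratio was 1.07 (0.97 to 1.17) at 24 h and 1.44 (1.34 to 1.55) at 48 h, the smallest of the 8 genes at both times. At 24 h its interval reaches below 2-fold.

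A gene was counted as higher or lower when its CPM differed at least 2-fold and it had at least 10 counts over both libraries. All 8 genes were higher at 24 h, where 3.46% of 17412 genes were higher and 26.0% lower, and all 8 were higher at 48 h, where 5.26% of 17376 genes were higher and 16.6% lower. The median log2 ratio of the 8 genes was 9.91 at 24 h and 10.87 at 48 h, beside medians of -0.46 and -0.18 over all genes.

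**Figure D1:**
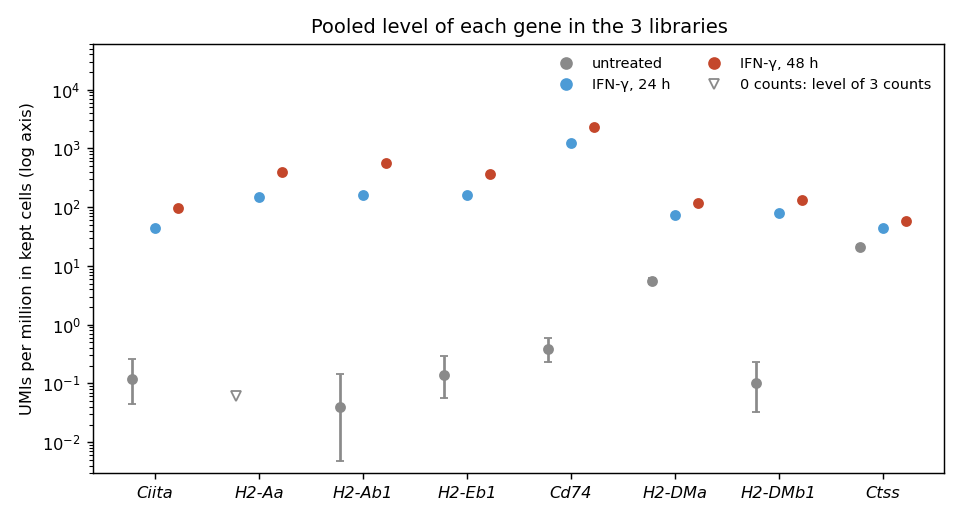
Pooled level of each gene, in CPM on a log axis, in the untreated (grey), 24 h (blue) and 48 h (red) library. Points are the pooled value of the 1 library of each group, bars are 95% Poisson intervals, and the open triangle for H2-Aa marks the level of 3 counts because its count was 0. In untreated cells 6 genes lay below 1 CPM, whereas H2-DMa and Ctss were at 5.50 and 21.3.

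Between 24 h and 48 h the genes differed in how much higher they became. H2-Ab1 had the largest log2 ratio of 48 h to 24 h, 1.79 (1.76 to 1.82), followed by H2-Aa at 1.40 (1.37 to 1.44), H2-Eb1 at 1.195 (1.16 to 1.23) and Ciita at 1.14 (1.07 to 1.2007). Cd74 (0.93), H2-DMb1 (0.73), H2-DMa (0.66) and Ctss (0.37) stayed under 2-fold. Thus 4 of 8 genes were higher at 48 h, where 11.6% of 16814 genes were higher and 2.31% lower, and the median of the 8 genes was 1.03 beside 0.26 over all genes. Scaling by TMM, which centred all genes near 0, left 2 of 8 at 2-fold or more, H2-Ab1 at 1.53 and H2-Aa at 1.14. In cells of 5000 to 20000 UMIs alone, the log2 ratio of Ciita was 0.29 while that of H2-Ab1 was 1.96.

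The balance of the chains thereby differed between the treated libraries. H2-Ab1 made up 34.2% (exact binomial interval 33.7 to 34.7) of the UMIs of H2-Aa, H2-Ab1 and H2-Eb1 at 24 h and 42.2% (41.8 to 42.6) at 48 h. H2-Eb1 made up 33.9% (33.4 to 34.4) and 27.6% (27.3 to 28.0), and H2-Aa 32.0% (31.5 to 32.5) and 30.1% (29.8 to 30.5). The H2-Ab1 share was thus higher and the H2-Eb1 share lower at 48 h, beyond counting error. For each UMI of these 3 chains there were 2.57 UMIs of Cd74 at 24 h (2.54 to 2.60) and 1.74 at 48 h (1.72 to 1.76). For each UMI of Ciita there were 37.7 UMIs of the 3 chains and Cd74 together at 24 h and 36.9 at 48 h. Both quotients pool cells of unlike depth. In cells of 5000 to 20000 UMIs alone, the log2 ratio of 48 h to 24 h was 0.29 for Ciita. It was higher for Cd74 and for each of the 3 chains, up to 1.96 for H2-Ab1. At that depth the quotient was thus higher at 48 h than at 24 h. The 8 genes together held 0.194% of all UMIs at 24 h and 0.406% at 48 h.

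A UMI of a class II chain or of Cd74 was counted in nearly every treated cell at equal depth. Free RNA was not removed, so such a UMI need not come from the cell itself. Cd74 was found in 2 of 1058 untreated cells (0.189%, exact binomial interval 0.0229 to 0.681), in 95.6% (94.1 to 96.9) of cells at 24 h and in 99.9% (99.75 to 99.99) at 48 h. H2-Ab1 was found in 1 untreated cell (0.0945%), 48.4% (45.1 to 51.7) at 24 h and 90.2% (89.1 to 91.2) at 48 h. H2-Aa was found in 0 of 1058 untreated cells, which by the limit of 3 counts allows a share of cells with a UMI of up to 0.284%, and in 47.4% and 83.5% of cells at 24 h and 48 h. H2-Eb1 was found in 0 untreated cells, and in 49.3% and 81.3%. The shares of the 3 chains lay within each other's intervals at 24 h, whereas at 48 h that of H2-Ab1 lay above both others.

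Shares of the other members were below those of the chain genes and Cd74 in the treated libraries, and above their own untreated shares. Ciita was found in 0.0945% of untreated cells, 22.8% (20.1 to 25.6) at 24 h and 39.7% (37.9 to 41.5) at 48 h. H2-DMb1 was found in 0 untreated cells, 29.1% and 48.0%, and H2-DMa in 4.63%, 27.2% and 44.0%. Ctss was found in 8.41% (6.81 to 10.3), 21.2% (18.6 to 23.9) and 25.5% (23.9 to 27.1). Without thinning, at medians of 68784 and 10772 UMIs, the order of the treated libraries turned for all 4, with 78.1% at 24 h and 66.2% at 48 h for Ciita, 83.0% and 71.5% for H2-DMa, 81.4% and 74.98% for H2-DMb1, and 80.7% and 52.7% for Ctss. The CPM of each of the 4 was higher at 48 h.

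**Figure D2:**
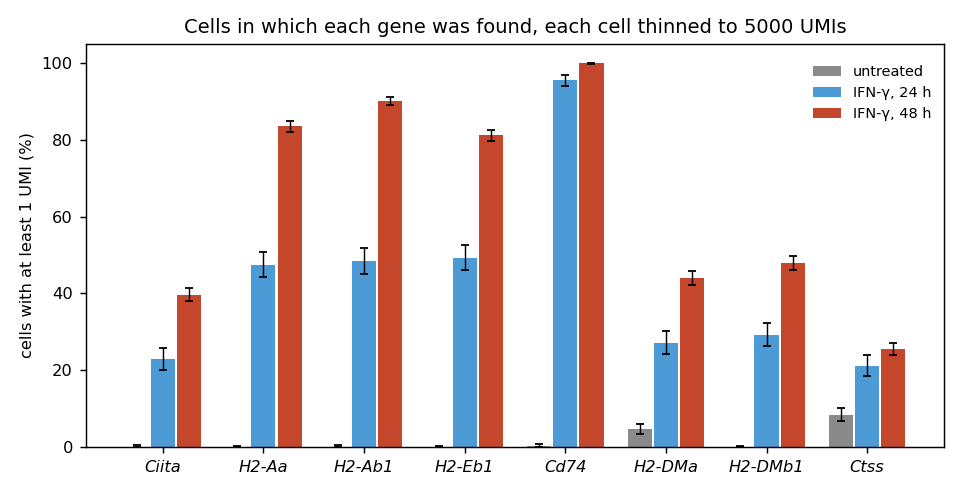
Share of cells with at least 1 UMI of each gene after each cell was thinned to 5000 UMIs, in percent, for the untreated (grey, 1058 cells), 24 h (blue, 917 cells) and 48 h (red, 2934 cells) libraries. Error bars are exact binomial 95% intervals; Cd74 is near 100% at both times, and Ctss differs least between the libraries.

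The background of these libraries held the same transcripts. In barcodes under 2000 UMIs, H2-Aa stood at 174 CPM at 24 h and 414 CPM at 48 h, and H2-DMa at 78.1 and 115.7 CPM, close to their levels in cells. Over the members other than Ciita, the level in cells divided by that in these barcodes ran from 0.869 (H2-Aa, 24 h) to 1.45 (Ctss, 48 h). For Ciita the quotient was 2.68 at 24 h and 3.57 at 48 h. How many of the UMIs within cells came from free RNA was not tested.

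The few class II UMIs of the untreated library were scattered. Ciita, H2-Aa, H2-Ab1, H2-Eb1, Cd74 and H2-DMb1 together gave 39 UMIs in 37 of 1058 cells, with at most 2 UMIs in a cell and 1 cell with more than 1 of these genes. None of the 37 barcodes was retained in another library. These genes were thus spread thinly over the untreated cells, with no cell that held several of them in number. H2-DMa was found in 215 untreated cells and Ctss in 395, with up to 8 and 21 UMIs in a cell at full depth.

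Class II levels covered a broad range of cells at each time. The summed UMIs of H2-Aa, H2-Ab1, H2-Eb1 and Cd74 (the chain sum below) had a median of 8 per thinned cell at 24 h and 18 at 48 h, with a highest value of 34 and 71. Cells without any such UMI numbered 1055 of 1058 in the untreated library (99.7%), 29 of 917 at 24 h (3.16%, 2.13 to 4.51) and 1 of 2934 at 48 h. At least 4 of the 8 genes were found in 0 untreated cells, 47.5% of cells at 24 h and 90.8% at 48 h.

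**Figure D3:**
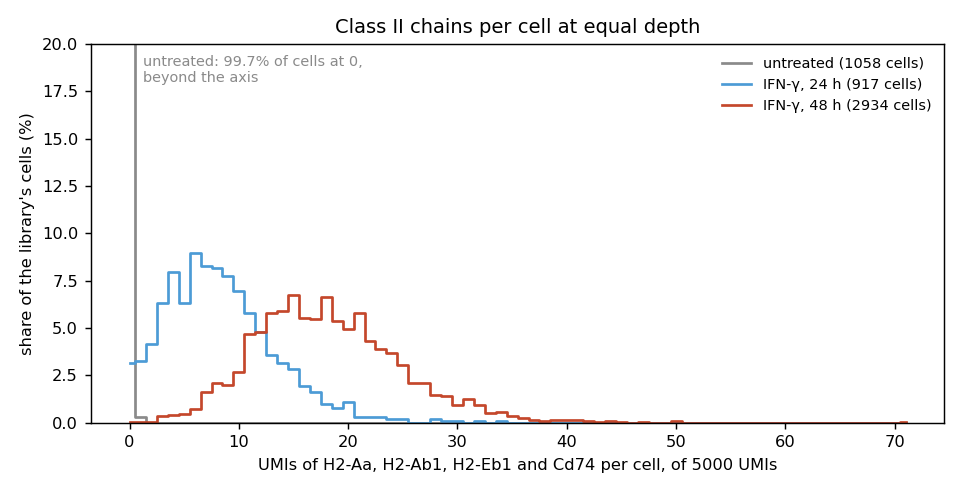
Distribution of the summed UMIs of H2-Aa, H2-Ab1, H2-Eb1 and Cd74 per cell, thinned to 5000 UMIs, as the share of each library's cells in percent. The untreated library (grey) lies at 0 in 99.7% of cells and is cut at the top of the axis; the 24 h (blue) and 48 h (red) libraries have medians of 8 and 18 and overlap.

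The spread over cells was lower at 48 h. The spread beyond counting, given as the squared coefficient of variation after subtracting Poisson noise, was 0.768 at 24 h and 0.277 at 48 h for Ciita, 0.721 and 0.153 for H2-Aa, 0.632 and 0.127 for H2-Ab1, and 0.210 and 0.0846 for Cd74. It was lower at 48 h for 7 of the 8 genes, and higher for Ctss (0.0656 and 0.229). The median over all genes found in at least 10% of cells was 0.268 at 24 h and 0.192 at 48 h. The class II chains at 24 h thus lay above that median, apart from Cd74, and below it at 48 h. The 90th percentile over the same genes also differed, with 1.17 in the 24 h library against 0.627 in the 48 h library. A lower spread at 48 h was thus not particular to the members. The share of all genes with a lower spread was not counted.

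Levels of the members were loosely related across cells of a library. Over the 28 pairs the median Pearson correlation of log UMIs was 0.118 at 24 h and 0.0604 at 48 h. The highest pair at 24 h was H2-Aa with Cd74 (0.347 over 917 cells), and at 48 h H2-Ab1 with Cd74 (0.254 over 2934 cells). All points share a library and were thinned to 1 depth, and counts this sparse lower any correlation. Among 6139 genes the 5 most like the chain sum, by the lower of the 2 correlations, were Cox4i1 (0.179), Ifitm3 (0.175), Cyba (0.159), H2-DMa (0.154) and Ubd (0.152), beside a median of -0.0236. H2-DMb1 was in place 18, and Ciita in place 703.

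Ciita had other neighbours. The 5 genes most like it were Malat1 (0.157), Ccser1 (0.150), Ptprd (0.142), Fgd4 (0.128) and Pip5k1b (0.126), and H2-Eb1 was the nearest member, in place 831 of 6142. Malat1 is a nuclear noncoding RNA, and the other 4 span 184 to 2271 kb, against a median of 17.4 kb over protein-coding genes and 48.4 kb for Ciita. Cells with a Ciita UMI had a mean chain sum of 9.39 at 24 h against 7.99 in cells without, and of 18.3 against 18.02 at 48 h. The former cells were shallower, with medians of 38149 against 71491.5 UMIs at 24 h and 10027 against 11449 at 48 h. Ciita was at 90.5 CPM in the 229 shallowest cells at 24 h and at 38.7 to 49.8 CPM in the others when all were ranked by depth into 4 equal sets, whereas the chain sum ran from 1610 to 1730.5 CPM. The part of depth in these values was not tested.

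**Figure D4:**
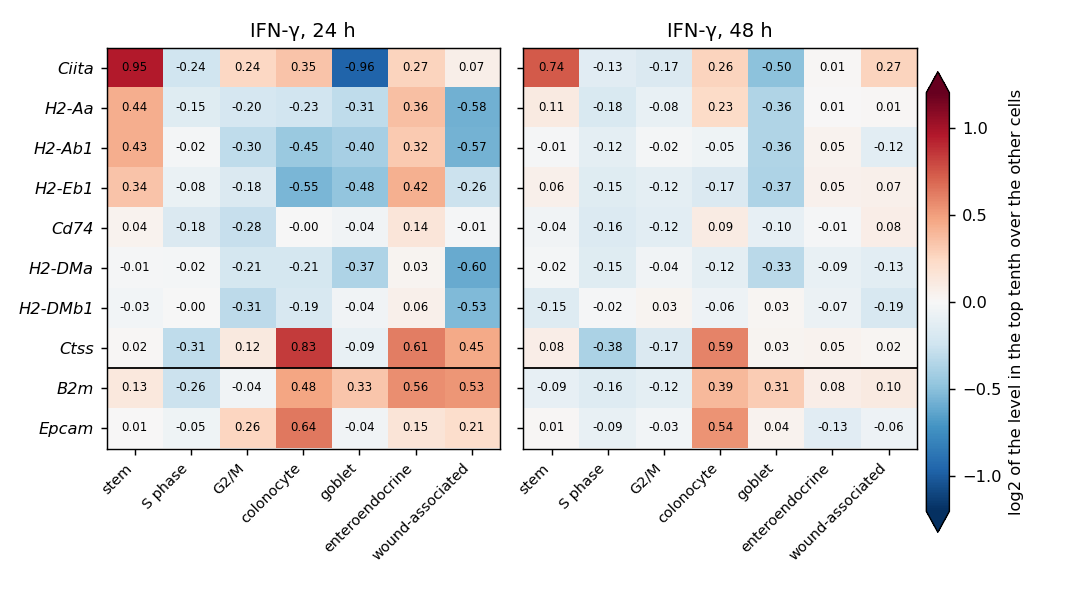
Log2 of the pooled level in the tenth of cells highest in each marker list (columns) over the other cells, for the 8 genes and for B2m and Epcam (rows), at 24 h and 48 h. Blue is lower and red higher; in the goblet column Ciita is at -0.96 and -0.50, and in the stem column at 0.95 and 0.74.

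Cell states were read from marker lists, by comparing the tenth of cells with the highest summed level of a list with the other cells of that library. These top groups are ranges of a score and not cell types; 9 cells at 24 h and 65 at 48 h lay within 10% of the goblet threshold. In the goblet group, led by genes of mucus secretion, all 8 members were lower than in the other cells at 24 h, where 66.8% of 15505 genes were lower, and 6 of 8 at 48 h, where 54.2% of 15387 genes were. The differences of Cd74, H2-DMb1 and Ctss were small, at -0.04, -0.04 and -0.09 on the log2 scale at 24 h, the intervals of H2-DMb1 and Ctss included 0 at both times, and with the 20% of cells highest in the list 4 of 8 were lower at that time. The median chain sum per cell was 999 CPM in the 92 goblet-high cells at 24 h and 1631 CPM in the other 825, and a chain UMI was found in 84.8% and 98.2% of them after thinning. At 48 h it was 3064 CPM in 293 cells and 3565 CPM in 2641. Ciita was at 24.6 against 47.8 CPM at 24 h, on the log2 scale -0.96 (-1.17 to -0.76), and at 72.0 against 101.5 CPM at 48 h, -0.50 (-0.66 to -0.33). B2m, the light chain of class I, was higher in the same cells, at 595 against 472 CPM at 24 h and 729 against 589 CPM at 48 h. Median depth was 71794.5 and 68668 UMIs in goblet-high and other cells at 24 h, and 10819 and 10767 at 48 h. The pooled chain sum at 24 h differed less than its per-cell median, at -0.13 on the log2 scale, while for the 20% of cells highest in the list it was 0.084 and for the 5% highest it was -1.14.

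The cells lowest in class II, selected on the chain sum itself, were described by their other genes. In the tenth of cells with the lowest chain sum at 24 h, at most 595 CPM against a median of 1687 CPM in the rest, Muc2, the main intestinal mucin, was found in 19.6% of thinned cells against 3.27%. At 48 h Muc2 was found in 10.2% against 2.76%. The low cells were not set apart by goblet genes alone. At 24 h the median of the goblet list was 157 against 108 CPM, and that of the colonocyte list 423 against 305 CPM. At 48 h these were 319 against 251 CPM and 338 against 302 CPM. Krt20, which the study used as a colonocyte marker, did not follow the colonocyte list at both times. At 24 h it was at 33.9 against 27.04 CPM, and was found in 6.52% against 6.91% of thinned cells. At 48 h it was lower in the low cells, at 9.72 against 27.4 CPM. The stem and G2/M lists were lower in the low cells at both times. H2-DMa stood at 23.2 against 77.5 CPM in the low and other cells at 24 h, H2-DMb1 at 21.5 against 85.7 CPM and Ciita at 22.4 against 46.8 CPM. At 24 h these 3 genes were thus low together with the chains. Ctss was at 40.4 against 45.02 CPM, a log2 difference of -0.16 (-0.36 to 0.04). The share of all genes lower in these cells was not counted. Class I and IFN-γ response genes differed less: H2-K1 was at 653 against 683 CPM, B2m at 496 against 486 CPM, Irf1 at 368 against 328 CPM and Nlrc5 at 53.0 against 42.0 CPM. At 48 h Ciita differed less, at 86.2 against 99.8 CPM, as did H2-DMa, at 73.2 against 119 CPM, while B2m was also lower, at 492 against 611 CPM. Median depth in the low cells at 24 h was 48417.5 UMIs against 70067, with 2.28% and 2.08% mitochondrial UMIs, and at 48 h it was 8081 against 11508, with 7.73% and 5.97%. The part of these differences in the result was not tested.

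Stem-high cells, ranked by genes of the crypt base such as Lgr5, had more Ciita. It was at 82.8 against 42.8 CPM at 24 h and 157.7 against 94.7 CPM at 48 h. The chain sum had log2 ratios of 0.15 at 24 h and -0.01 at 48 h. At 24 h those of H2-Aa, H2-Ab1 and H2-Eb1 were 0.44, 0.43 and 0.34 and that of Cd74 was 0.04, and at 48 h they were 0.11, -0.01, 0.06 and -0.04. These cells were shallower, with medians of 18460.5 against 71531 UMIs at 24 h and 7925 against 11723 at 48 h, and in cells of 5000 to 20000 UMIs the log2 ratio of Ciita was 0.32 (-0.30 to 0.88) at 24 h and 0.41 (0.22 to 0.60) at 48 h, beside 0.32 and -0.0083 for the chain sum. Ctss was instead higher in colonocyte-high cells, ranked by genes of mature absorptive cells, at 75.7 against 42.5 CPM at 24 h and 83.3 against 55.3 CPM at 48 h. Epcam was also higher there, by 0.64 and 0.54 on the log2 scale. In cells high in S phase or G2/M genes the chain sum was lower by 0.10 to 0.26 on the log2 scale, and in 24 h cells of 5000 to 20000 UMIs the S phase value was 0.37.

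Most other genes of class II presentation differed less than 2-fold from untreated. Of 15 further pathway genes in the matrices, 13 had enough counts. At 24 h 3 were higher and 1 lower, where 3.46% of all genes were higher and 26.0% lower. At 48 h 4 were higher and 1 lower, where 5.26% of all genes were higher and 16.6% lower. The median log2 ratio was 0.12 at 24 h and 0.34 at 48 h. H2-DMb2, the copy next to H2-DMb1, had 0, 14 and 113 UMIs in the untreated, 24 h and 48 h libraries, and H2-Eb2 had 0, 13 and 46. Both were counted as higher at each time, against the 3 counts that an untreated count of 0 allows. Their log2 ratios of 48 h to 24 h were 3.60 (2.80 to 4.52) and 2.41 (1.4998 to 3.43), on few counts. H2-Oa and H2-Ob, whose product restrains H2-M in B cells, had 0 or 1 UMI in each library. Ifi30, the thiol reductase of the endosome, was at 128, 139 and 117 CPM. The endosomal proteases Ctsb, Ctsd, Ctsl and Lgmn all differed less than 2-fold. Cd40, a receptor that binds a T cell ligand, was at 0.241, 1.70 and 2.52 CPM, whereas Cd80 and Cd86, the costimulatory ligands, stayed at or under 1.06 CPM. March1, a ubiquitin ligase that sends class II for breakdown, was lower, at 2.47, 0.506 and 0.741 CPM. These levels rest on few cells, with 123 UMIs in 31 untreated cells, 36 in 20 at 24 h and 35 in 29 at 48 h.

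The genes of the proteins that hold Ciita at promoters differed less than 2-fold in each comparison. The 7 are Rfx5, Rfxap, Rfxank, Nfya, Nfyb, Nfyc and Creb1, and their median log2 ratio was -0.32 at 24 h and -0.08 at 48 h. Most genes likewise differed less than 2-fold. Of all genes 3.46% were higher and 26.0% lower at 24 h, and 5.26% and 16.6% at 48 h. From 24 h to 48 h, 11.6% were higher and 2.31% lower. Rfx5, the subunit for which the RFX complex is named, was at 5.86, 8.65 and 10.7 CPM, a log2 ratio of 0.87 (0.66 to 1.08) at 48 h. Of 8 genes upstream of Ciita, 2 were higher and 1 lower than untreated at each time. Irf1, a transcription factor that acts on the Ciita gene, was at 23.5, 331 and 310 CPM. Irf1 was thus near its 48 h level at 24 h, with a log2 ratio of 48 h to 24 h of -0.10 beside 1.14 for Ciita. The value of Ciita was 0.87 with TMM and 0.29 in cells of 5000 to 20000 UMIs alone. Socs1, the feedback inhibitor of JAK kinases, was at 1.29, 79.2 and 38.3 CPM, lower at 48 h than at 24 h. Ifngr2, a chain of the IFN-γ receptor, was at 76.5, 34.6 and 27.9 CPM.

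Class I served as the nearest comparison. All 7 class I genes were higher at both times, where 3.46% and 5.26% of all genes were, with median log2 ratios of 2.76 and 3.06. H2-K1 was at 268, 680 and 1029 CPM. Nlrc5, the class I counterpart of Ciita and a related protein, was at 0.341, 42.8 and 91.4 CPM. Its log2 ratio of 48 h to 24 h was 1.09, against 1.14 for Ciita, whereas that of B2m was 0.31. These values are over all retained cells, and that of Ciita was 0.29 in cells of 5000 to 20000 UMIs alone.

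**Figure D5:**
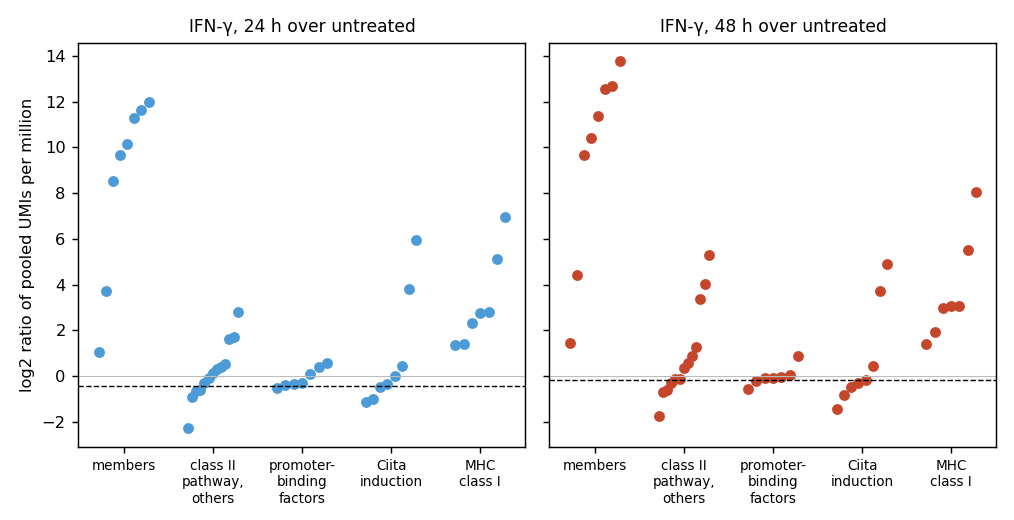
Log2 ratio of pooled CPM, IFN-γ over the same untreated library, for each gene with at least 10 counts in the members, the further class II pathway genes, the promoter-binding factors, the genes upstream of Ciita and class I, at 24 h (left) and 48 h (right). The dashed line is the median of all genes, -0.46 and -0.18; the promoter-binding factors lie between -1 and 1, and 6 of the 8 members lie above 8.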

How the data were processed

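Organoid cells were sorted for live cells and made into 10x 3' v3 libraries. The authors aligned and counted reads with Cell Ranger 6.0.1 against mm10, per the labels. The deposited UMI counts cover 20841 (untreated), 17227 (24 h) and 22478 (48 h) barcodes. The annotation release is not given in the sources used here. IDs matched GENCODE vM21 for 32158 of 32285 genes. The members and gene lists were chosen with earlier results of these data known, and the named genes are the members, these lists and the 5 genes most like Ciita or the chain sum. The study's filter was applied (5000 UMIs or more, 400 genes or more, mitochondrial UMIs up to 15%). Doublets were not called and free RNA was not removed. Each library was pooled over its cells, and a gene's sum was divided by the total of 49801935 (untreated), 71077817 (24 h) or 47243500 UMIs (48 h). Intervals are exact at 95% (Poisson, Clopper-Pearson or conditional binomial) and cover counting error only. Ratios and thinning were tested on simulated data. Alternatives varied the filters, depth range, scaling (TMM, edgeR 4.0.16 in R 4.3.3), thinning and the size of top groups; the rest ran in Python 3.11.15 with scipy 1.17.1. A gene listed upstream of Ciita is not reported here. Promoters of Ciita, H2-Ab1 and Cd74, the position of Cd74 and protein sequences were not analysed here.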

Additional observations from a re-analysis of the deposited data

Results flagged for a closer look

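Class II transcripts were found outside the cells that were compared. In barcodes under 2000 UMIs the 8 genes together stood at 1598 CPM in the 24 h library (15994 barcodes) and 3431 CPM in the 48 h library (14296 barcodes), against 20.4 CPM in the untreated library (17603 barcodes). The retained cells were at 1938, 4055 and 27.6 CPM in the same order. The source of these UMIs was not tested.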

How the results depend on the processing

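No paired analysis was possible because each group was 1 library. Against untreated, all 8 genes were 2-fold higher under 9 settings at 48 h and under 8 of 9 at 24 h; without the tenth of cells with the most UMIs, 7 were at 24 h. The members' median log2 ratio was 7.503 at 24 h and 8.55 at 48 h in cells of 5000 to 20000 UMIs. H2-Aa had no untreated UMI, so its ratios in these cells, 7.88 and 9.38, are lower bounds set by the count limit. Ciita, H2-Ab1 and H2-DMb1 had only 6, 2 and 5 UMIs in all untreated cells together. In cells of 5000 to 20000 UMIs their 24 h ratios, 7.16, 7.84 and 6.68, thus rest on the count limit or on few counts. At 24 h the median lies between Ciita and H2-Ab1, and at 48 h between H2-DMb1 and H2-Aa. The 24 h level of H2-Aa was 148.6 CPM in the 229 shallowest cells, beside 151.6 CPM over all cells. The part of the count limit in the lower medians was not tested. Of 48 h over 24 h the members' median was 0.93 with a minimum of 2000 UMIs, 0.77 with TMM (2 members at 2-fold) and 0.94 as a mean over cells. Each of 216 single-member ratios retained its sign, which says little where a ratio to untreated was far from 0. Of the 216, 169 moved by no more than their counting error. Genes called at 24 h were 1224 higher and 2903 lower with TMM (main 602 and 4526), 1885 lower in cells of 5000 to 20000 UMIs, and 1959 higher with no count filter. At 48 h, 2549 were higher with no count filter (914) and TMM gave 1157 higher and 2325 lower (914 and 2876). Of 48 h over 24 h (1958 and 388), 1087 were higher with a minimum of 10000 UMIs and 4164 with no count filter; TMM gave 1070 and 687, cells of 5000 to 20000 UMIs 408 and 1490, and the mean over cells 1105 and 918. TMM moved the median of all genes from -0.46 to -0.01, from -0.18 to 0.01 and from 0.26 to 0.00072. The median share of cells over members (0.0945%, 38.3% and 64.7%) was 0.614%, 84.1% and 84.5% without thinning, and 18.2% and 37.6% at 2000 UMIs for the treated libraries. Among the 20% of cells highest in the goblet list at 24 h, 4 members were lower. For the chain sum, log2 values turned to 0.053 (S phase, 5% highest, 24 h), 0.084 (goblet, 20% highest, 24 h) and 0.16 (wound-associated, 5% highest, 24 h); in cells of 5000 to 20000 UMIs they turned to 0.37 (S phase, 24 h), -0.13 (enteroendocrine, 24 h) and -2.45e-05 (colonocyte, 48 h). Ciita turned there to 0.39 (S phase), -0.088 (G2/M) and -0.51 (enteroendocrine) at 24 h, and to 0.17 (G2/M) at 48 h; where its interval included 0, it moved from 0.071 to -0.19 (wound-associated, 24 h) and from 0.015 to -0.15 (enteroendocrine, 48 h). The cause was not tested. One library a group, unequal depth and class II transcripts in background barcodes limit every comparison.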

Other observations

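Genes next to the class II genes on chromosome 17 were read as further values. The neighbours were a list chosen with earlier results of these data known, and are not every gene of the region. Class I and class II genes such as H2-K1, Tap1, H2-DMb2 and H2-Eb2 are among them. Leaving out the members, 13 neighbours had enough counts. Of these, 9 were 2-fold higher at 24 h, where 3.46% of all genes were, and 10 at 48 h, where 5.26% were, with 0 lower. Because the list was chosen, these counts do not describe the region as a whole. Psmb8 and Psmb9, subunits of the immunoproteasome that lie between the H2-M and H2-A genes, were at 0.964, 474 and 495 CPM and at 3.27, 235 and 176 CPM in the untreated, 24 h and 48 h libraries. Btnl2, a butyrophilin-like gene beyond H2-Eb2, was at 0.0602, 1.86 and 4.40 CPM, and Btnl1, next to it, at 0.261, 0.591 and 2.46 CPM. Brd2, Rxrb and Notch4, in the same region, differed less than 2-fold in each comparison; Brd2 was at 73.4, 76.1 and 92.2 CPM.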
